A study of Danio rerio with 1109 samples.

Results

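The receptors *flt4* (ENSDARG00000104453), *kdr* (ENSDARG00000017321) and *kdrl* (ENSDARG00000105215) are 3 of the 32057 gene rows counted in single cells of the zebrafish embryo trunk at 48 hours post fertilization (hpf). They were chosen by name, as receptors of the vascular endothelial growth factor (VEGF) family through which Vegfa and Vegfc act on vessels. A cell with 20 or more raw counts of a gene is called positive here. The study set 20 counts per cell for 4 other genes, and its methods do not say whether these were raw or normalized. A threshold on raw counts takes no account of the depth of a cell. Of 1109 cells, 173 were positive for at least 1 of the 3 receptors, 19 passed an endothelial gate and 1090 did not. The gate asked for 20 or more counts of at least 2 of *pecam1*, *cdh5* and *tie1*, genes of endothelial junctions and of an angiopoietin receptor family, and used none of the 3 receptors. For *pecam1* the gene listed as *pecam1a* was taken.

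The cells came from 2 transgenic lines and 3 plates of 384 wells, all from trunks of embryos of 48 hpf that had been partially dissociated with trypsin and DNase. On *vegfc* plate 1 (367 cells) and *vegfc* plate 2 (377 cells) the embryos carried *vegfc:Gal4FF*, *UAS:GFP* and *kdrl:mCherry*, so that *vegfc* regulatory sequence drove GFP through Gal4 and *kdrl* regulatory sequence drove membrane-bound mCherry. On the *pdgfra* plate (365 cells) the embryos carried *pdgfra:mCit*. According to the methods, cells with GFP but no mCherry and cells with mCherry but no GFP were sorted from the first line, and cells with mCitrine from the other, after pooling of trunks. The labels name neither an embryo nor a sort gate for a cell, so each plate counts as 1 sample, no p-value is given, and every share of cells below is a share of what was sorted. Intervals in parentheses are exact 95% Clopper-Pearson intervals for shares and exact Poisson intervals for summed counts, and they cover counting error only, since reads were amplified and not tagged by molecule. A share of 0 of n cells allows up to 3 cells of n. Counts on genes per cell lay between 50045 and 782140, with a median of 298220. Level is given as CPM, the count of a gene scaled to a common total of counts on genes, and since transcript lengths were not used, levels are compared within a gene only.

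*flt4* encodes Vegfr3, the receptor through which Vegfc guides sprouting of veins and of lymphatic precursors. *kdr* encodes a Vegfr2 and *kdrl* a closely related receptor of fish, and both receive Vegfa when arterial vessels sprout. The regulatory sequence of *kdrl* is widely used to mark endothelial cells of zebrafish, and at 48 hpf the trunk holds arteries, veins and the precursors of lymphatic vessels.

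Most of the 19 endothelial cells carried several, but not all, of the genes that mark this cell type. *clec14a* and *sox18*, an endothelial surface protein and a transcription factor of vessels, and *plvapb*, which encodes a protein of endothelial openings, were each positive in 18 of 19 cells. Some other genes of endothelial identity were positive in fewer, with *plvapa* in 3, *tek* and *tal1* in 6 each and *erg* in 10 of 19. Outside the gate *clec14a* was positive in 1 of 1090 cells. *egfl7*, positive in 18 of the 19, was positive in 174 of the 1090. *pdgfra*, a receptor of fibroblasts, was positive in 0 of the 19 cells and in 521 of the others. The fibroblast marker *col1a2*, in contrast, was positive in 8 of the 12 *flt4*-positive and 3 of the 7 *flt4*-negative endothelial cells. *col1a1a* was positive in 5 of 12 and 2 of 7. Among markers of other cell types, *krt4* was positive in 6 of 12 and 5 of 7. *hbae3* was positive in 7 of 12 and 4 of 7, and *lyz* in 7 of 12 and 1 of 7. How these counts arose was not tested. Of the 19 cells 4 were on *vegfc* plate 1, 15 on *vegfc* plate 2 and none on the *pdgfra* plate, and all 19 lay in well columns 17 to 24. The cells of 2 wells passed a further gate as well, the neutrophil and the epithelial one.

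All 3 receptors were far higher in the endothelial cells than in the other cells, on both *vegfc* plates. *kdr* reached 179 CPM (169 to 190) summed over the 19 endothelial cells and 0.743 CPM (0.654 to 0.841) over the 1090 others, a log2 ratio of 6.69 with 1 CPM added to both. *kdrl* reached 1008 CPM (983 to 1033) and 30.0 CPM (29.4 to 30.6), a log2 ratio of 5.03. mCherry driven by *kdrl* regulatory sequence was used in the sort, so the *kdrl* ratio depends on how cells were chosen. *flt4* reached 454 CPM (437 to 471) and 19.6 CPM (19.1 to 20.05), a log2 ratio of 4.47. The *flt4* ratio was 3.28 with a gate that asked for all 3 markers, which leaves out the cell with the most *flt4* counts. Within *vegfc* plate 1 the log2 ratios were 5.76 for *flt4*, 6.70 for *kdr* and 4.05 for *kdrl*. Within *vegfc* plate 2 they were 3.88 for *flt4*, 6.10 for *kdr* and 5.02 for *kdrl*. The order of the 3 ratios depended on the plate and on the CPM added, since with 10 CPM added over all cells *kdrl* was at 4.67, above *kdr* at 4.14 and *flt4* at 3.97. A log2 ratio of 2 or more was reached by 699 of 18529 genes tested, or 3.77%, and by all 3 receptors, whose ranks were 32 for *kdr*, 74 for *kdrl* and 111 for *flt4*. Without *vegfc* plate 2, which held 15 of the 19 cells, the number of genes was 1061. The median gene had a log2 ratio of −0.65.

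*kdrl* was positive in nearly every endothelial cell. Its counts were 165, 293, 197 and 67 in the 4 cells of *vegfc* plate 1. In the 15 cells of *vegfc* plate 2 they ranged from 1 over a median of 345 to 766. The share of positive cells was 18 of 19, or 94.7% (74.0 to 99.9). Since *kdrl*-driven mCherry was used in the sort, this share too depends on how cells were chosen. The exception was cell 10 of *vegfc* plate 2, with 1 count of *kdrl* beside 181 of *kdr*, 320 of *flt1*, 513 of *pecam1*, 53 of *cdh5* and 371 of *tie1*.

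*flt4* was positive in 12 of the 19 endothelial cells, or 63.2% (38.4 to 83.7). Its counts were 1278, 350, 1 and 1 in the 4 cells of *vegfc* plate 1. On *vegfc* plate 2 they ranged from 0 over a median of 74 to 250. There was a gap between positive and negative cells: the lowest positive endothelial cell held 33 counts and the highest negative cell 1. The single cell with 1278 counts carried a large part of the 2884 *flt4* counts of all endothelial cells, and it was also the only 1 of the 19 that was positive for the gene listed as *PROX1* (203 counts), which encodes a transcription factor of lymphatic identity.

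*kdr* was positive in 11 of the 19 endothelial cells, or 57.9% (33.5 to 79.7). Its counts were 148, 8, 19 and 0 in the 4 cells of *vegfc* plate 1, so 1 cell passed the threshold and another missed it by 1 count. On *vegfc* plate 2 they ranged from 0 over a median of 47 to 225, with 10 of 15 cells positive. Depth moved with this call: the positive cells had a median of 391095 counts on genes and the negative ones 182804. With every cell thinned to 50000 counts on genes and a threshold of 3 counts, *kdr* was found in 12 of the 19 cells and *flt4* again in 12.

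**Figure D1:**
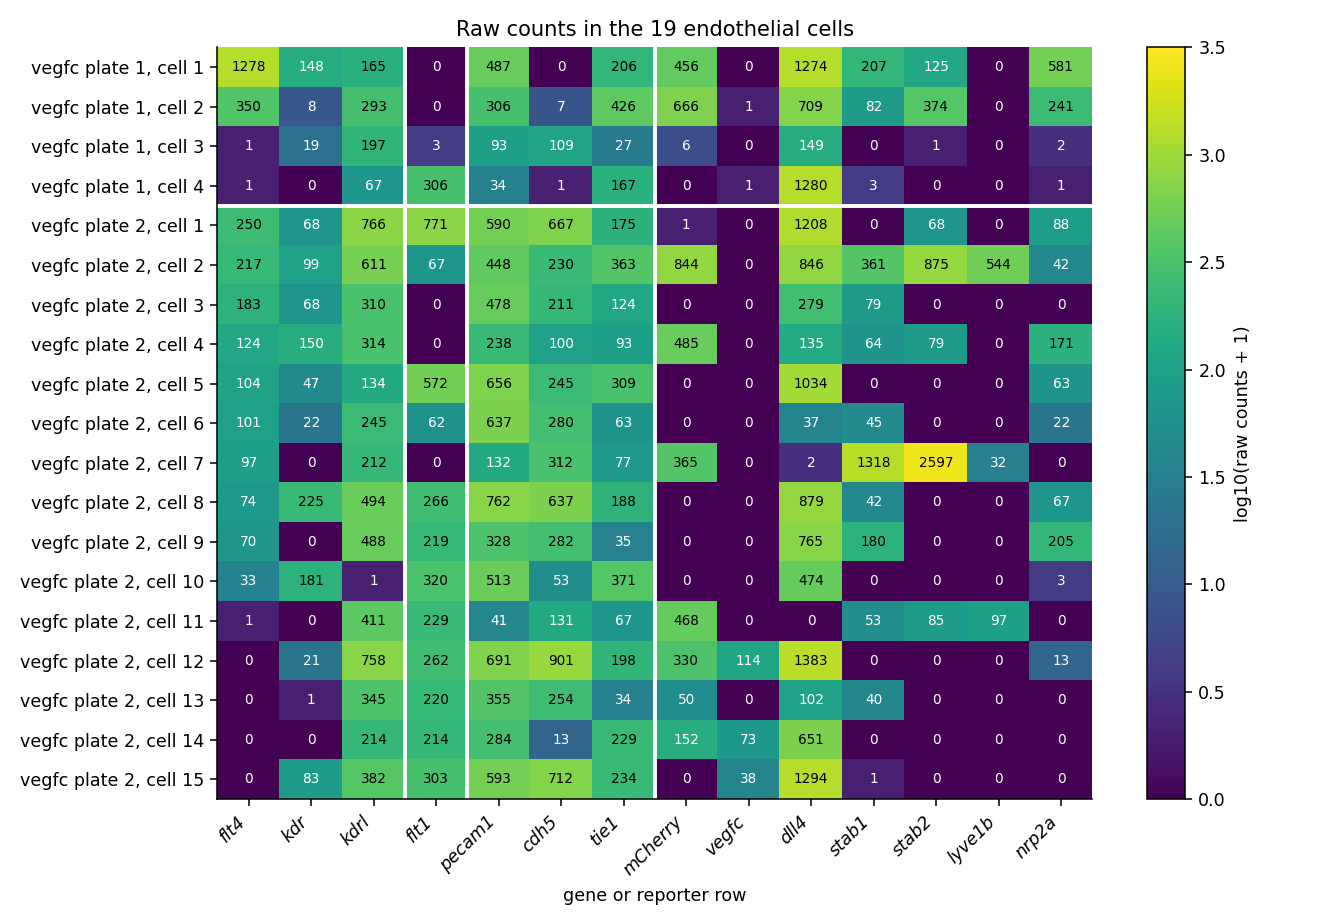
Raw counts of the 3 receptors, of *flt1*, of the 3 gate genes, of the mCherry row and of 6 further genes (columns) in each of the 19 endothelial cells (rows, ordered within a plate by *flt4* counts), with colour on a log10 scale of counts plus 1. *kdrl* was at 67 or more counts in every cell but cell 10 of *vegfc* plate 2, while *flt4* was at 0 or 1 count in 7 cells.

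The receptors were found in several combinations. All 3 were positive in 8 of the 19 endothelial cells, *kdrl* alone in 5, *flt4* with *kdrl* in 3, *kdr* with *kdrl* in 2 and *flt4* with *kdr* in 1. Of the 12 *flt4*-positive endothelial cells 11 were *kdrl*-positive (91.7%, 61.5 to 99.8) and 9 were *kdr*-positive. Among the 7 *flt4*-negative cells, *kdrl* was positive in 7 and *kdr* in 2.

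Genes of arterial and of venous or lymphatic vessels were found together with *flt4*. *dll4*, a Notch ligand of arterial and sprouting cells, was positive in 11 of the 12 *flt4*-positive and in 6 of the 7 *flt4*-negative endothelial cells. *stab1*, a scavenger receptor of veins and lymphatics, was positive in 9 of 12 and 2 of 7. *stab2*, of the same family, was positive in 6 of 12 and 1 of 7, and *lyve1b*, which encodes a hyaluronan receptor of these vessels, in 2 of 12 and 1 of 7. *dab2*, an endocytic adaptor, was positive in 9 of 12 and 2 of 7. The arterial *hey2* was positive in 5 of 12 and 3 of 7, and the venous *nr2f2* in 2 of 12 and 1 of 7. Median depth was 395698 counts in the *flt4*-positive and 160533 in the *flt4*-negative cells, and the kinase gene *mapk3* was positive in 9 of 12 and 1 of 7. After thinning to 50000 counts with 3 counts as threshold, *stab1* was found in 9 of 12 and 2 of 7 and *dab2* in 8 of 12 and 2 of 7.

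*lyve1b* was positive in 3 endothelial cells, all of *vegfc* plate 2, and each was positive for *stab2* too. In cell 7 of *vegfc* plate 2, *stab2* was at 2597 counts, *stab1* at 1318, *lyve1b* at 32 and *flt4* at 97, while *dll4* was at 2 and *kdr* at 0. In cell 2 of the same plate, *stab2* was at 875 counts, *lyve1b* at 544 and *flt4* at 217, while *dll4* was at 846. In cell 11, *lyve1b* was at 97 counts and *stab2* at 85, while *flt4* was at 1 and *dll4* and *kdr* were at 0.

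*nrp2a*, which encodes a neuropilin, the family of co-receptors of VEGF receptors, was found with *flt4* in the endothelial cells. It was positive in 9 of the 12 *flt4*-positive cells and in none of the 7 *flt4*-negative cells. Median depth was 395698 counts in the first and 160533 in the second set, and after thinning to 50000 counts and with 3 counts as threshold the numbers were again 9 of 12 and 0 of 7. Outside the gate *nrp2a* was positive in 33 of 57 *flt4*-positive cells, or 57.9% (44.1 to 70.9), and in 32.3% of all cells outside it. By plate these shares were 59.1% and 33.1% on *vegfc* plate 1, 55.6% and 23.8% on *vegfc* plate 2, and 58.8% and 40.0% on the *pdgfra* plate.

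*vegfc*, the ligand of Flt4, was at 20 or more counts in 3 endothelial cells, all of *vegfc* plate 2 and all without a count of *flt4*. These were cells 12, 14 and 15, with 114, 73 and 38 counts of *vegfc*. In the same cells *kdrl* was at 758, 214 and 382 counts, *flt1* at 262, 214 and 303 and *dll4* at 1383, 651 and 1294. None of the 12 *flt4*-positive endothelial cells was *vegfc*-positive. According to the methods, cells with both GFP and mCherry were not sorted, and GFP was driven by *vegfc* regulatory sequence. The *vegfc* numbers therefore depend on the sort.

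*flt1*, which encodes Vegfr1, a receptor that binds Vegfa and can hold it away from the other receptors, was positive in 13 of the 19 endothelial cells and 2 of the 1090 others. It was positive in 7 of the 12 *flt4*-positive and 6 of the 7 *flt4*-negative cells. Over the 19 cells the log2 values of *flt4* and *flt1* (CPM plus 10) had a Pearson r of −0.64 and a Spearman rho of −0.64, and over the 15 cells of *vegfc* plate 2 of −0.60 and −0.54. The same values for *flt4* and *kdr* were 0.43 and 0.47 over the 19 cells, and for *kdr* and *kdrl* −0.29 and −0.11. These cells share 2 plates and differ in depth, and the coefficients are given as a description.

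The receptors differed in how many of their positive cells were endothelial. Of the 14 *kdr*-positive cells 11 were endothelial, or 78.6% (49.2 to 95.3). Of the 125 *kdrl*-positive cells 18 were endothelial, or 14.4% (8.76 to 21.8), and of the 69 *flt4*-positive cells 12, or 17.4% (9.32 to 28.4). So 107 *kdrl*-positive and 57 *flt4*-positive cells lay outside the gate, against 3 *kdr*-positive ones. Without *vegfc* plate 2 the endothelial share was 4.88% of *flt4*-positive and 5.06% of *kdrl*-positive cells.

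**Figure D2:**
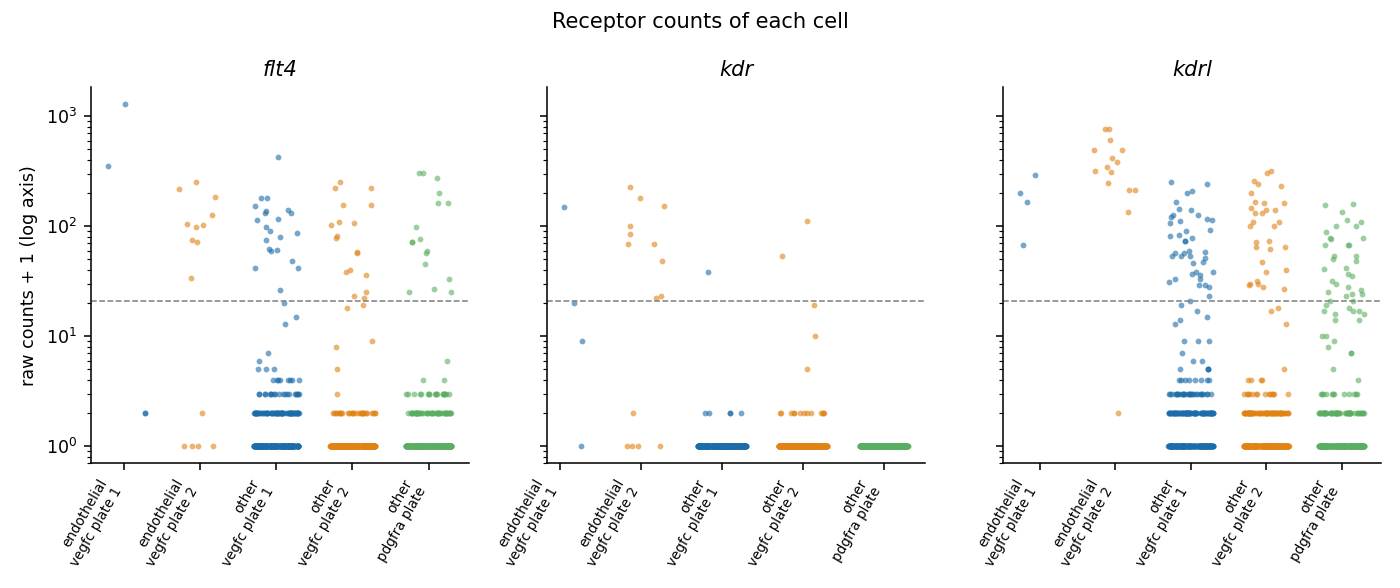
Raw counts plus 1 (log axis) of *flt4*, *kdr* and *kdrl* in each cell (points, spread sideways), for endothelial and other cells of each plate, with a dashed line at 20 counts. On each plate *flt4* and *kdrl* passed the line in cells outside the endothelial gate, and on the *pdgfra* plate every cell was at 0 for *kdr*.

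The *pdgfra* plate held no endothelial cell, yet it held cells positive for *flt4* and *kdrl*. *kdr* and *flt1* had no count in any of its 365 cells, which allows a share of up to 0.822% of cells. *kdrl* was positive in 32 of the 365 cells, or 8.77% (6.07 to 12.2), with a median of 51 counts in the positive cells and up to 159. *flt4* was positive in 17, or 4.66% (2.74 to 7.35), with a median of 71 counts and up to 306.

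On the *vegfc* plates the shares outside the gate overlapped in their intervals with those of the *pdgfra* plate. *kdrl* was positive in 43 of 363 other cells of *vegfc* plate 1, or 11.8% (8.71 to 15.6), and in 32 of 362 of *vegfc* plate 2, or 8.84% (6.13 to 12.2). The positive cells held medians of 58 and 103 counts and up to 252 and 319. *flt4* was positive in 22 and 18 of these cells, or 6.06% (3.84 to 9.03) and 4.97% (2.97 to 7.74), with medians of 93.5 and 78.5 counts and up to 422 and 250. The plates differed in make-up: 221 of these 725 cells lacked the fibroblast gate described below, against 1 of 365 on the *pdgfra* plate. Among cells with that gate, *kdrl* was positive in 14.5% (11.5 to 17.9) on the *vegfc* plates and 8.79% (6.09 to 12.2) on the *pdgfra* plate. For *flt4* these shares were 7.54% (5.39 to 10.2) and 4.67% (2.74 to 7.37).

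In positive cells the level of *kdrl* was higher inside the gate, with an overlap. The median was 1074 CPM in the 18 endothelial and 234 CPM in the 107 other positive cells. Of the 107, 1 lay above the endothelial median, and 8 of the 18 lay above the highest of the 107. For *flt4* the medians were 473 CPM in 12 endothelial and 274 CPM in 57 other cells. Of the 57, 12 lay above the endothelial median, and 1 of the 12 endothelial cells lay above the highest of the 57. The 3 *kdr*-positive cells outside the gate held 37, 53 and 111 counts.

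The vessel genes *flt1*, *stab1*, *stab2*, *dll4*, *tek*, *lyve1b* and *kdr* were rare in all cells outside the gate. By construction these cells hold at most 1 of the 3 gate genes. Not every endothelial gene was rare there. Over the 1090 cells, *egfl7* was positive in 174, *robo4* in 48 and the gene listed as *FLI1* in 226. These 3 were not counted by receptor. Of the 107 *kdrl*-positive cells 4 had a gate gene and 4 any count of *flt1*, and of the 57 *flt4*-positive cells 1 had a gate gene and 2 any count of *flt1*. Among the *kdrl*-positive cells, *stab1* was positive in 3, *dll4*, *tek* and *lyve1b* in 1 each and *stab2* and *kdr* in 0. Among the *flt4*-positive cells, *dll4* and *stab1* were positive in 1 each and *tek*, *lyve1b*, *stab2* and *kdr* in 0. Over all 1090 cells outside the gate *stab1* was positive in 18, *tek* in 13, *dll4* in 11, *kdr* in 3 and *stab2* and *lyve1b* in 1 each. The depth of these cells was near that of the other cells, with medians of 311684 counts for *kdrl*-positive and 287603 for *flt4*-positive cells against 298022 for all cells outside the gate. Among cells with exactly 1 gate gene, 16 in number, 4 were *kdrl*-positive and 1 was *flt4*-positive, and none was *kdr*-positive.

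Nearly all of these cells passed the fibroblast gate, which asked for 3 of *pdgfra*, *col1a1a*, *col1a2*, *lum*, *dcn* and *col5a1* at 20 or more counts. This held for 105 of the 107 *kdrl*-positive and 55 of the 57 *flt4*-positive cells outside the endothelial gate, where 868 of 1090 cells passed it. Among the 868, *kdrl* was positive in 12.1% (10.0 to 14.5) and *flt4* in 6.34% (4.81 to 8.17). Among the 222 cells without it, each was positive in 2, or 0.901% (0.109 to 3.22). *kdr* was positive in 2 of the 868 and 1 of the 222.

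Outside the fibroblast gate few cells were positive. In 51 neural, 16 macrophage, 25 epithelial and 21 muscle cells, neither *flt4* nor *kdrl* reached 20 counts. The highest count of *kdrl* was 3 in the neural cells and 16 in the epithelial cells. *kdr* was at 111 counts in 1 muscle cell. *kdrl* was at 27 counts in 1 of 21 neutrophil cells, on *vegfc* plate 1, which also held 223 counts of *tie1* and 68 of mCherry. In the 51 neural cells a share of 0 allows up to 5.88%. A further 248 cells passed several gates, 197 of them the fibroblast gate, and of the 248, *kdrl* was positive in 20 and *flt4* in 15. The 2 *flt4*-positive cells without the fibroblast gate passed no gate.

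**Figure D3:**
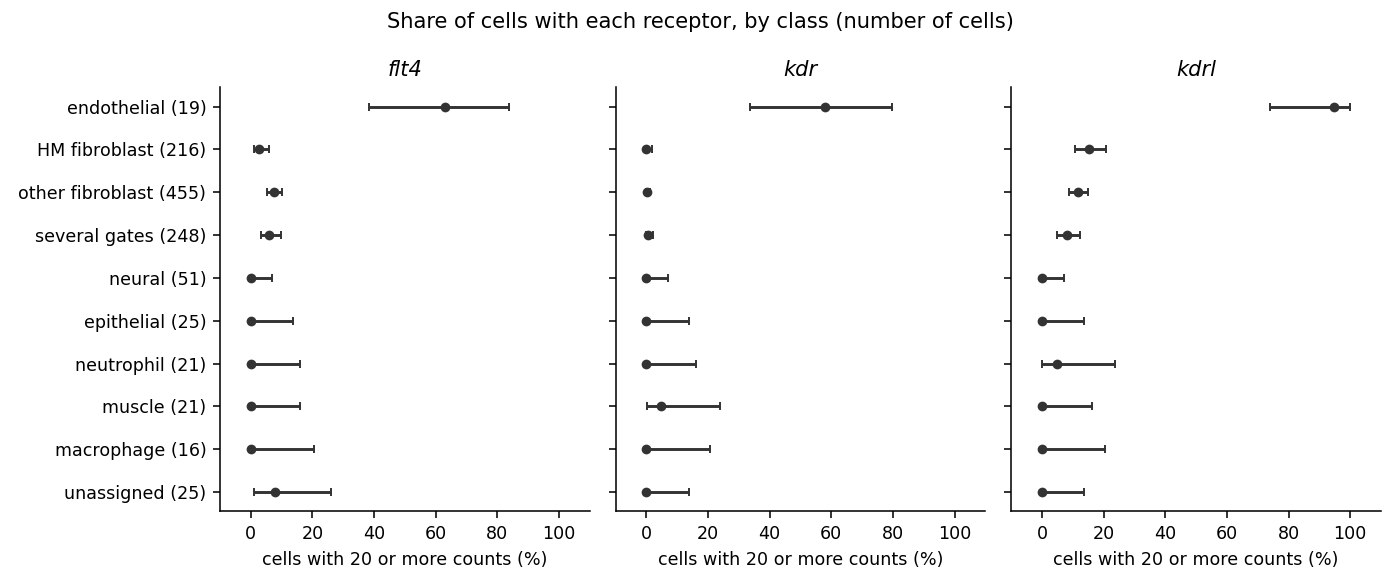
Share of cells with 20 or more counts of *flt4*, *kdr* and *kdrl* by cell class over all plates, with the number of cells of a class in parentheses and bars for exact 95% intervals. *kdr* was at 57.9% in endothelial cells and at 0.22% or less in both classes of fibroblasts, while *kdrl* was at 15.3% and 11.6% in these.

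Fibroblasts that passed no other gate and were also positive for *en1a* or *en1b*, engrailed genes of the horizontal myoseptum (HM), the sheet of tissue along which lymphatic precursors gather, are called HM fibroblasts here. *flt4* was positive in 6 of 216 HM fibroblasts, or 2.78% (1.03 to 5.95), and 34 of 455 other fibroblasts, or 7.47% (5.23 to 10.3). The HM share was the lower on each plate, with 2.44% against 14.9%, 3.39% against 5.52%, and 2.59% against 5.26% on *vegfc* plates 1 and 2 and the *pdgfra* plate. These HM shares rest on 1, 2 and 3 positive cells. Fibroblasts that passed another gate are in neither class. On *vegfc* plate 1 they were 131 of the 273 cells with the fibroblast gate, and *flt4* was positive in 4.58% (1.70 to 9.70) of them. *kdrl* was positive in 15.3% (10.8 to 20.8) of HM and 11.6% (8.85 to 14.96) of other fibroblasts, and the order differed between plates. On the *vegfc* plates it was 17.1% against 18.8% and 10.2% against 16.6%, and on the *pdgfra* plate 17.2% against 4.78%. In other fibroblasts the *kdrl* interval of both *vegfc* plates together (12.9 to 22.8) did not overlap that of the *pdgfra* plate (2.32 to 8.62). In HM fibroblasts the intervals overlapped (7.11 to 21.2 and 10.9 to 25.4).

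*flt4* and *kdrl* were found together in 13 cells outside the gate. *kdrl* was positive in 22.8% (12.7 to 35.8) of the 57 *flt4*-positive cells and in 9.82% of all cells outside the gate. By plate these shares were 31.8% and 11.8% on *vegfc* plate 1, 16.7% and 8.84% on *vegfc* plate 2 and 17.6% and 8.77% on the *pdgfra* plate. *ccbe1*, which encodes a secreted protein that helps to process Vegfc, was positive in 35 of the 107 *kdrl*-positive cells (32.7%) and 4 of the 57 *flt4*-positive cells (7.02%), against 17.9% of all cells outside the gate. *vegfc* was positive in 13.1% of the *kdrl*-positive and 10.5% of the *flt4*-positive cells, against 11.3% of all. These bases, and that of *nrp2a* above, include the 222 cells without the fibroblast gate, while nearly all of the positive cells passed it. The *ccbe1* and *vegfc* shares pool the 3 plates. By class, *ccbe1* was positive in 53.7% of HM and 11.2% of other fibroblasts.

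Each of these rows counts reads of Smart-seq2 libraries, which do not keep the strand of a read. Aligned reads were not analysed here, so where on *flt4* or *kdrl* the reads of cells outside the gate fell was not tested.

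The mCherry row, a transcript of the *kdrl:mCherry* transgene, was positive in 22 of the 744 cells of the *vegfc* plates, 11 on each. mCherry fluorescence was itself used in the sort, so these shares depend on how many wells each gate filled. Of these 22 cells 15 were *kdrl*-positive, or 68.2%, and 9 were endothelial, or 40.9% (20.7 to 63.6). All 9 endothelial cells with mCherry were *kdrl*-positive, and 9 of the 18 *kdrl*-positive endothelial cells had mCherry. Of the 10 endothelial cells below the threshold, 8 had no count of mCherry, 7 of them on *vegfc* plate 2, with *kdrl* at up to 494 counts. The paper reports that its endothelial cluster held only cells sorted as *kdrl:mCherry*-positive. That cluster was not matched to the gate used here. A cell without mCherry counts may therefore still have been sorted for mCherry fluorescence, which the labels do not give. Median depth was 382659 counts in mCherry-positive and 359097 in the other endothelial cells.

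Of the 93 *kdrl*-positive cells of the *vegfc* plates, 15 were mCherry-positive, or 16.1%. Outside the endothelial gate this held for 6 of 75, or 8% (2.99 to 16.6), beside 1.79% of all cells outside the gate on these plates. In the 13 mCherry-positive cells outside the gate, mCherry lay between 22 and 332 counts and *kdrl* between 0 and 140. Of these cells, 1 was at 0 for *kdrl*. *flt4* was at 1 count or less in all 13 and *kdr* at 0. None of the 40 *flt4*-positive cells outside the gate on these plates was mCherry-positive, beside the 1.79% of all cells outside it. Inside the gate 5 of the 12 *flt4*-positive cells were, beside 9 of all 19 endothelial cells.

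Across the 744 cells the log2 values of *kdrl* and mCherry (CPM plus 10) had a Pearson r of 0.42, and 0.21 without the endothelial cells. For *kdr* and mCherry the values were 0.28 and 0.00, and for *flt4* and mCherry 0.19 and −0.03. The cells share plates, and of the 320 cells with any count of *kdrl* 102 had any count of mCherry.

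**Figure D4:**
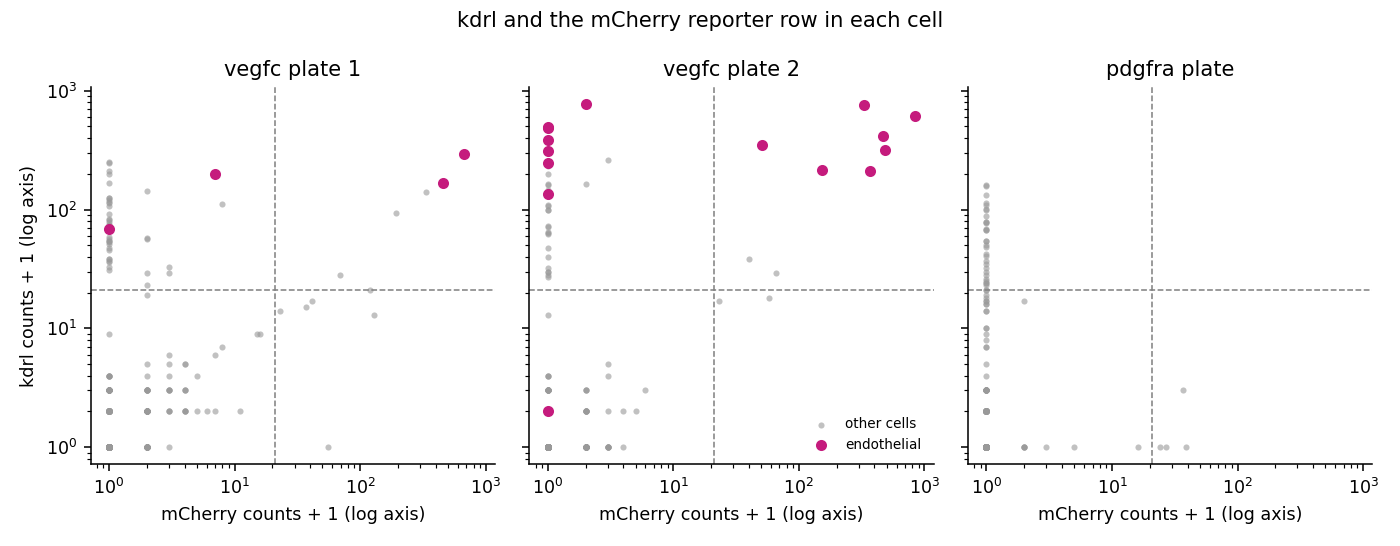
Counts plus 1 of *kdrl* against the mCherry row (both axes log) in each cell of the 3 plates, with endothelial cells in magenta, other cells in grey and dashed lines at 20 counts. Of the *kdrl*-positive cells of the *vegfc* plates 15 of 93 lay right of the mCherry line, and on the *pdgfra* plate, whose line is labelled without mCherry, 4 cells lay right of it, with at most 2 counts of *kdrl*.

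Low counts of *kdr*, *flt1* and *flt4* lay mostly in wells that shared a row or a column with a positive well. On the *vegfc* plates, *kdr* was at 1 to 19 counts in 21 of 345 cells outside the gate whose well shared a row or a column with a *kdr*-positive well, or 6.09% (3.81 to 9.15). It was so in 0 of 377 cells whose well shared neither, which allows up to 0.796%. *flt1* gave 46 of 337 cells, or 13.6% (10.2 to 17.8), and 0 of 386. For *flt4* the numbers were 141 of 651 and 0 of 34 on the *vegfc* plates, and 71 of 273 and 1 of 75 on the *pdgfra* plate. For *kdrl* few wells shared neither. They were 0 of 5 on the *vegfc* plates beside 226 of 645, and 2 of 13 on the *pdgfra* plate (15.4%, 1.92 to 45.4) beside 82 of 320 (25.6%, 20.9 to 30.8), so that for *kdrl* the layout could not be read. Counts below 20 were not read as expression, and how they arose was not tested. The *pdgfra* plate held no endothelial well, and 8.77% of its cells were *kdrl*-positive and 4.66% *flt4*-positive. The source of the counts in positive cells outside the gate was not tested either.

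**Figure D5:**
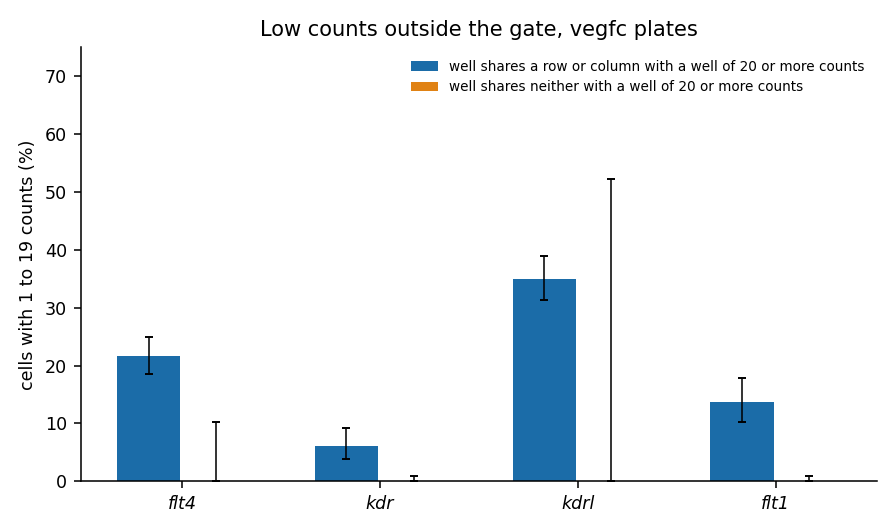
Share of cells outside the endothelial gate with 1 to 19 counts of a gene on the *vegfc* plates, for wells that share a plate row or column with a well of 20 or more counts of that gene (blue) and wells that share neither (orange), with exact 95% intervals. No cell of the second kind held a low count of *flt4*, *kdr*, *kdrl* or *flt1*, so the orange bars have no height, and for *kdrl* they rest on 5 cells.

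Genes with which the receptors act were read against the 3.77% of all genes past a log2 ratio of 2 in endothelial cells and the 23.3% past −2. Of the matched co-receptors and receptors, *flt1* (log2 ratio 8.82) and *nrp1b* (2.57, but −0.56 on *vegfc* plate 1) were past the fold and *nrp2a* (0.84) was not. Of 12 genes of receptor signalling and turnover 4 were past it. These were *plcg1* (2.17), which encodes a phospholipase activated by VEGF receptors, *ptprb* (3.25), an endothelial phosphatase, *dab2* (5.63) and *dusp5* (3.70), a phosphatase of Erk. *spry4*, which encodes an inhibitor of receptor kinase signalling, was at −1.81.

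No listed ligand or processing factor that was matched by its own name was past a log2 ratio of 2. Of the 3 ligand genes tested, *vegfc* was at −0.35, *vegfba* at 0.42, and *vegfd*, another VEGF ligand, was past −2 with 3 counts in all endothelial cells. *vegfc* was at −4.23 on *vegfc* plate 1 and −0.21 on *vegfc* plate 2. GFP driven by *vegfc* regulatory sequence was used in the sort, so the *vegfc* ratios depend on how cells were chosen. Of 4 genes listed with Vegfc processing 2 were past −2, *ccbe1* and *svep1*. The paper names no established direct link between *svep1* and that processing. *ccbe1* (−5.45) was positive in 0 of 19 endothelial cells and in 195 of the others, and *svep1*, which encodes an extracellular matrix protein, had 2 counts in all endothelial cells. *adamts3* and *adamts14* both encode proteases that cleave Vegfc. *adamts3* was at −1.90, with 29 counts in all endothelial cells, and *adamts14* was at −0.53, with 14 counts.

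Vessel genes were read in the same way. All 13 tested genes of endothelial identity were past 2 over all cells, with a median of 5.55 and the highest value for *clec14a* (9.38). On *vegfc* plate 1 alone, *tal1* (−2.15) and *plvapa* (0.40) were not. Of 6 venous and lymphatic genes 4 were past it, *stab2* (9.03), *stab1* (6.04), *lyve1b* (5.91) and *dab2*, while *ephb4a* was at 0.74 and *nr2f2* at 0.04. Of 5 arterial genes *dll4* (8.35) and *hey2* (2.37) were past 2, *dlc* was at 1.51, and *unc5b* and *tbx20* were past −2, with 6 and 1 counts in all endothelial cells. Genes listed under shared names in capitals are not in these tallies. The 2 listed as *CXCR4* were at 4.73 and 0.33, as *EFNB2* at 3.29 and 1.52 and as *NOTCH1* at 2.61 and 1.85. On *vegfc* plate 1 the first *CXCR4* and *EFNB2* values were 1.21 and 1.41. *PROX1* was at 2.13, but at −3.74 on *vegfc* plate 2. Of the 4 related receptor kinases tested 3 were past −2, among them *pdgfra* (−5.95) and *pdgfrb* (−5.23).

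The genes whose log2 values (CPM plus 10) were most like those of a receptor over the 744 cells of the *vegfc* plates were sought among 17108 genes. For *kdr* they were *sele* (r = 0.70), which encodes an endothelial selectin, *ecscr* (0.68), an endothelial surface protein, the gene listed as *MYCT1* (0.68), *notchl* (0.67) and *si:ch211-260g14.9* (0.66). For *kdrl* they were *rasip1* (0.53), an endothelial regulator of vessel lumens, *clec14a* (0.50), *cdh5* (0.49), *etsrp* (0.48), an early transcription factor of endothelium, and *pecam1a* (0.48), of which *cdh5* and *pecam1a* are gate genes. For *flt4* the gene listed as *PLEKHG5* (0.44), the unnamed ENSDARG00000107130 (0.42), *tnfaip2b* (0.42), *si:ch73-70l21.6* (0.41) and *rasip1* (0.41) came first. Of these, *rasip1* was positive in 18 endothelial cells and 2 others of these plates, and *PLEKHG5* in 13 and 16. Without the 19 endothelial cells the same coefficients lay at or below 0.20 for *kdr*, 0.13 for *kdrl* and 0.25 for *flt4*. Other genes came first there, listed as *FMOD* for *kdrl* (0.34), *MYF5* for *flt4* (0.32) and *DYSF* for *kdr* (0.31). On the *pdgfra* plate the first were *fgl1b* for *kdrl* (0.30) and the gene listed as *DBX1* for *flt4* (0.32). The cells share plates and depth, and most hold no count of the receptor.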

How the data were processed

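The authors deposited raw counts per gene and cell. According to the methods, reads from Smart-seq2 libraries were demultiplexed with bcl2fastq, trimmed with trim galore, aligned to GRCz11 with TopHat and Bowtie2, cleared of what the methods call doublets with samtools and counted with featureCounts of Subread, and cells with fewer than 50000 counts were dropped. The counts were not normalized. Of 32057 gene rows, 28988 were matched to a symbol, and of 132 listed genes 102 were matched, the rest, such as *vegfaa*, *nrp2b* and *efnb2a*, being listed under a shared name in capitals or not at all. CPM used gene rows only, without 92 spike-in and 2 reporter rows.

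Cell classes were set by gates of 20 or more counts on fixed markers, the endothelial gate first. Ratios across genes used genes with at least 300 counts and 3 cells. Named genes were the listed ones, the 5 most correlated with each receptor and the most correlated ones without endothelial cells. Members and lists were chosen with earlier results of these data known. Thresholds, gates, pseudocounts, scaling and plates were varied, and Python 3.11.15 with SciPy 1.17.1 and pandas 2.3.3 was used. No 2 cells had identical counts. No coordinates are printed, since the annotation used is of another assembly.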

Additional observations from a re-analysis of the deposited data

Results flagged for a closer look

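Among the 4 endothelial cells of *vegfc* plate 1, the highest count of *kdr* was 148 and the next 19, a gap that is large against the range of these cells. Against their own range, the gap below the highest count was smaller for *flt4* (1278, then 350) and *kdrl* (293, then 197). In counts the *flt4* gap was the larger, and *flt4* fell further from 350 to 1. These are single cells of 1 plate and not replicates.

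On the *pdgfra* plate, whose line is labelled without an mCherry reporter, 4 of 365 cells held 20 or more counts on the mCherry row, with 38, 36, 26 and 23 counts. *kdrl* was at 2 counts or less in these cells and *flt4* and *kdr* at 0. The source of these counts was not tested.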

How the results depend on the processing

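Most of the endothelial cells were on *vegfc* plate 2. Without it, 4.88% of *flt4*-positive and 5.06% of *kdrl*-positive cells were endothelial, *kdr* was positive in 25.0% and *kdrl* in 100% of the 4 endothelial cells left, *kdrl* in 100% of 2 *flt4*-positive ones, the log2 ratios were 5.87 for *flt4* and 4.33 for *kdrl*, and 1061 genes were past the fold. With a threshold of 1 count, 5.26% of *flt4*-positive, 36.8% of *kdr*-positive and 4.36% of *kdrl*-positive cells were endothelial, *kdrl* was found in 100% of endothelial cells and of those with *flt4*, and mCherry in 31.9% of cells with *kdrl*. With 50 counts, *kdrl* was found in 100% of the 11 endothelial cells with *flt4*. With all 3 markers asked for, the log2 ratio of *flt4* was 3.28. With 10 CPM added, the log2 ratio of *kdr* was 4.14 and 310 genes were past the fold. Of 126 recomputed values 109 moved by less than their interval or the spread of the plates, or, for the number of genes, by less than 1.5 times. Some of the 109 could not move: the *pdgfra* plate held no endothelial cell, so shares within endothelial cells were the same without it. No log2 ratio changed sign, and the cause of these shifts was not tested beyond the number of cells left. Summing *pecam1a* and *pecam1b* in the gate, an alternative chosen after seeing the data, gave the same share of *kdrl*-positive endothelial cells, 18 of 19. No paired analysis was possible because no number links a cell to a cell of another plate. The 19 endothelial cells limit every share within them.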

Other observations

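Some genes of the VEGF pathway are listed under names in capitals that do not tell the fish copies apart. The gene listed as *PGF*, a ligand of Vegfr1 in mammals, was positive in 8 of 19 endothelial cells and 9 of 1090 others, with a log2 ratio of 4.25 on *vegfc* plate 2 and −1.13 on *vegfc* plate 1. The 2 genes listed as *VEGFA* were positive in 0 and 1 endothelial cells and in 80 and 248 others, with 1 and 79 counts in all endothelial cells. Of the 2 genes listed as *CXCR4*, a chemokine receptor of sprouting vessels, ENSDARG00000057633 was positive in 6 of the 12 *flt4*-positive and 5 of the 7 *flt4*-negative endothelial cells, and ENSDARG00000041959 in 0 of 12 and 3 of 7.

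Outside the endothelial gate, *kdrl* was positive in 13.8% of cells in well columns 17 to 24 of the *pdgfra* plate and in 6.20% of cells in columns 1 to 16. On *vegfc* plate 1 these shares were 9.32% and 13.1%, and on *vegfc* plate 2 they were 13.5% and 6.77%. The columns were chosen after it was seen that all endothelial cells lay in 17 to 24, and the labels do not say what was sorted into them.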
